A study of Homo sapiens with 9 samples.

Results

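The transcripts described here belong to 35 genes for SR proteins, hnRNPs, snRNP and other spliceosome proteins, splicing kinases and G-patch proteins, out of 1513 genes on either of 2 deposited lists of edited transcripts. The genes were chosen by their presence on at least 1 of these lists, so their presence is a description and not a result, and factors of the U2 snRNP and the branchpoint were left out. Of the 35 genes, 10 were listed with GPATCH8-ADAR alone, 21 with ADAR-SUGP1 alone and 4 with both. They made up 14 of the 565 genes with GPATCH8-ADAR (2.48%) and 25 of the 1110 genes with ADAR-SUGP1 (2.25%).

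The lists come from TRIBE-seq of 293T cells, a human embryonic kidney line, in which an RNA-binding protein carries the catalytic part of a hyperactive fly deaminase (ADAR) and so marks the RNA it contacts by turning adenosine into inosine. The 9 samples comprised GPATCH8-ADAR (2 libraries) and a non-targeting MCP fusion (2 libraries) in sequencing run 1, and ADAR-SUGP1 (2 libraries), its own MCP control (2 libraries) and untransfected cells (1 library) in run 2. The sample descriptions label every library as SF3B1 wild type, and transfected cells were collected by their fluorescence 24 h after transient transfection. The comparison asks which RNAs each protein touches. The tables give 1 count of sites for each Ensembl transcript and region, after endogenous editing and editing by the control fusion had been taken out and only events found in both replicates had been kept. They hold no positions, editing levels, read depths, replicate values or control values, so no spread between libraries can be given, and fusion and sequencing run cannot be told apart. The labels give about 60 to 80 M paired reads per sample, with no figure for each library, and leave unstated if the replicates were separate cultures. The identity of the cells was taken from the labels, since no expression values were given.

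The spliceosome assembles anew on each intron from small nuclear ribonucleoproteins (snRNPs) that recognise the splice sites and then carry out both cutting steps. SR proteins, which carry a domain rich in arginine and serine, bind exons and recruit snRNPs, and kinases of the SRPK and CLK families phosphorylate that domain. The hnRNPs coat nascent RNA and often keep splice sites from being used. Transcripts of many SR and hnRNP genes hold highly conserved alternative exons, through which the proteins limit their own amounts. GPATCH8 and SUGP1 both carry a G-patch, a short glycine-rich domain that binds and activates DEAH-box helicases, and both have been linked to branchpoint choice by SF3B1.

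Nearly all transcript-body sites of the 35 genes lay in introns. Stop-codon sites were counted apart and are not in these shares. With ADAR-SUGP1, 5 of 25 genes had at least 1 stop-codon site. With GPATCH8-ADAR, 25 of 26 sites in the transcript body (5′ UTR, coding sequence, 3′ UTR and introns) were intronic (96.2%, exact binomial 95% interval 80.4 to 99.9), and with ADAR-SUGP1 27 of 29 were (93.1%, 77.2 to 99.2). Over all listed genes these shares were 79.0% of 797 sites and 69.2% of 1358 sites. The other 3 transcript-body sites of the splicing genes lay in 3′ UTRs. All 3 belonged to SR protein genes, namely SRSF3 with GPATCH8-ADAR and SRSF2 and SRSF5 with ADAR-SUGP1. No site was counted in coding sequence or in a 5′ UTR with either fusion. The intervals cover counting error only, and sites of 1 gene are not independent of each other.

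Counted by gene, an intronic site was present in 13 of the 14 splicing genes with GPATCH8-ADAR (92.9%, exact interval 66.1 to 99.8), against 73.6% of all listed genes. With ADAR-SUGP1 it was present in 22 of 25 (88.0%, 68.8 to 97.5), against 63.9%. A 3′ UTR site was present in 1 of 14 and 2 of 25 genes, against 17.9% and 15.9% of all listed genes. A coding site was present in 0 of 14 and 0 of 25 genes, against 2.65% and 11.5%, and a 5′ UTR site in 0 of 14 and 0 of 25, against 1.59% and 5.14%. The exact interval for 0 of 25 reaches 13.7%, so a share of coding sites like that of all listed genes could not have been told from none. No splicing gene had a promoter site, where 1.59% and 1.17% of all listed genes had one. By gene, the background share for introns thus lay inside the interval with GPATCH8-ADAR and below it with ADAR-SUGP1. By site, the backgrounds of 79.0% and 69.2% lay below both intervals, which start at 80.4 and 77.2. With GPATCH8-ADAR the margin was narrow, and CCDC84 alone gave 6 of the 26 sites. No interval was made without CCDC84, so the position of this background cannot be taken as a difference. The intervals by site treat sites of 1 gene as independent. No test was made of these differences, since the genes were chosen from the same lists.

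**Figure D1:**
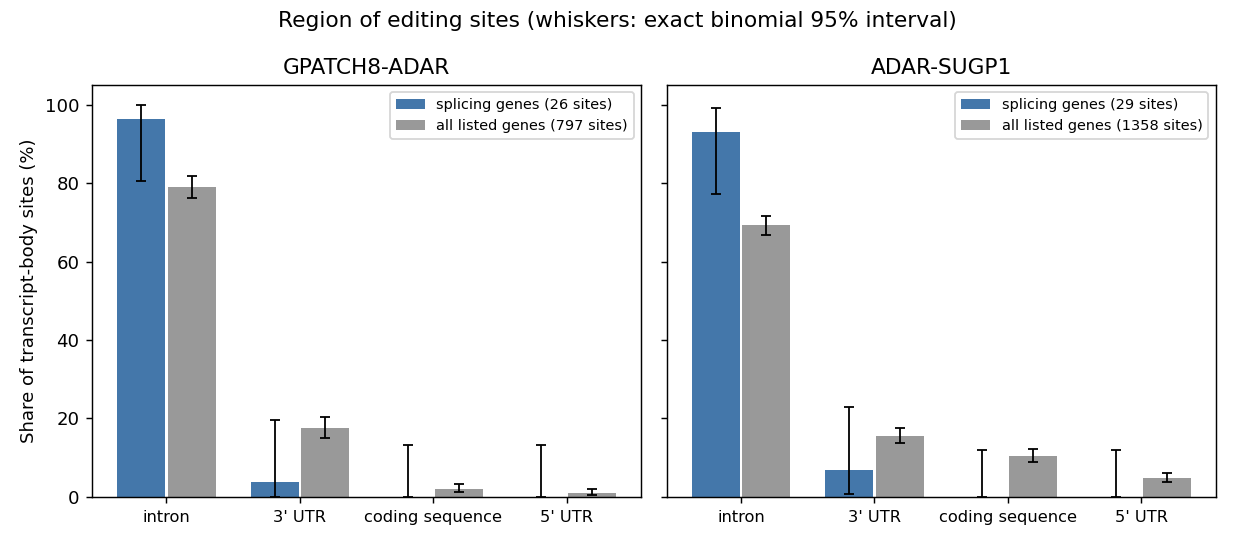
Share of transcript-body editing sites (%, vertical axis) by region for the splicing genes and for all listed genes, with GPATCH8-ADAR on the left and ADAR-SUGP1 on the right; whiskers are exact binomial 95% intervals. The intronic share of the splicing genes was 96.2% and 93.1%, against 79.0% and 69.2% for all listed genes, and their coding and 5′ UTR shares were 0. Stop-codon sites, which are counted apart, are left out.

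Among SR proteins, 6 genes of a list of 14 had an edited transcript, 1 with GPATCH8-ADAR and 5 with ADAR-SUGP1, and none was on both lists. Absence from the other list was usual, since it held only 28.7% of all GPATCH8-ADAR genes and 14.6% of all ADAR-SUGP1 genes. SRSF3, the smallest SR protein and one that also takes part in RNA export, had 1 site with GPATCH8-ADAR, in the 3′ UTR of ENST00000373715.6. With ADAR-SUGP1, SRSF2, an exonic enhancer-binding protein that is recurrently mutated in myelodysplasia, had 1 site in the 3′ UTR of ENST00000392485.2. SRSF5 had 1 in the 3′ UTR of ENST00000555547.1, and its second listed transcript, ENST00000553521.1, had a count of 0 in every region. Thus both fusions left 3′ UTR sites in this family, though in different genes.

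The remaining SR protein genes had intronic sites with ADAR-SUGP1. SRSF11 had 2 sites in ENST00000370951.1, the highest transcript-body count of the family. SRSF7, an SR protein that shuttles to the cytoplasm and serves as an export adaptor, had 1 site in ENST00000313117.6. SRSF6 had 1 intronic site and 1 site in the stop-codon region of the same transcript, ENST00000483871.2. In all, SR protein genes held 7 transcript-body sites, 4 in introns and 3 in 3′ UTRs. Of the same list, SRSF1, SRSF4, SRSF8, SRSF9, SRSF10, SRSF12, TRA2A and TRA2B were on neither list.

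Of 13 SR-related genes, 3 were listed with ADAR-SUGP1 and none with GPATCH8-ADAR, too few to compare the fusions. SRRM1, a splicing coactivator, had 1 intronic site in ENST00000323848.9. SON, a large protein of nuclear speckles that carries both an arginine-serine-rich region and a G-patch, had 1 intronic site in ENST00000356577.4 and 1 stop-codon site in ENST00000290239.6. The other of the 3, BCLAF1, is not among the 35 genes and had 1 intronic and 1 stop-codon site with ADAR-SUGP1.

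Of 29 hnRNP genes, 2 were listed with GPATCH8-ADAR and 6 with ADAR-SUGP1, again with no gene in common, and all 11 of their transcript-body sites were intronic. PTBP2, the form of the polypyrimidine tract-binding protein known from neurons, had 3 sites in ENST00000482253.1 with GPATCH8-ADAR. HNRNPC, which binds uridine tracts in nascent RNA, had 2 in ENST00000320084.7 with the same fusion. With ADAR-SUGP1, RALY, a relative of HNRNPC, had 2 in ENST00000489384.1. HNRNPC and RALY, relatives in sequence, were thus each listed with a different fusion and with the same count. Neither point is unusual. Most genes of either list were absent from the other, which held 28.7% of GPATCH8-ADAR genes and 14.6% of ADAR-SUGP1 genes. A count of 2 was found in 106 of 565 and 146 of 1110 listed genes, respectively, and the match was not tested.

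Further hnRNP genes had 1 intronic site each with ADAR-SUGP1. They were HNRNPA3, HNRNPDL, a relative of the AU-rich element binder HNRNPD, PCBP2, a poly(C)-binding protein, and SYNCRIP, also known as hnRNP Q. HNRNPU, a nuclear scaffold protein, had no site in the transcript body and 2 in the stop-codon region of ENST00000444376.2, and it was the only one of the 35 genes listed for stop-codon sites alone. An antisense transcript named after it, HNRNPU-AS1, was also listed with ADAR-SUGP1, with 2 intronic sites. The use of strand is not given in the sources used here, and whether these are the same 2 sites cannot be told without positions. Among the 21 hnRNP genes on neither list were HNRNPA1, HNRNPA2B1, HNRNPK, HNRNPL and PTBP1.

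Genes of the U5 snRNP were listed with GPATCH8-ADAR. EFTUD2, the GTPase of the U5 snRNP, had 1 intronic site in ENST00000426333.2 with GPATCH8-ADAR. SNRNP40, a U5 protein built of WD repeats, had 3 in ENST00000263694.4 with the same fusion, and no U5 gene of the list of 9 was listed with ADAR-SUGP1. Among genes of the U4/U6 snRNP and the tri-snRNP, PRPF38B and SART3, which helps U4 and U6 to pair again after splicing, had 1 intronic site each with GPATCH8-ADAR. PRPF3, a U4/U6 protein, had 1 with each fusion, in the same transcript, ENST00000324862.6. Numbers this small do not show that the fusions differ for U5 or U4/U6 genes, and this was not tested.

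U1 and Sm ring genes were present on both lists. SNRNP70, the U1 protein that contacts SR proteins, had 1 intronic site in ENST00000601065.1 with GPATCH8-ADAR. LUC7L, a relative of a yeast U1 protein that helps to select 5′ splice sites, had 2 in ENST00000426094.1 with ADAR-SUGP1. LUC7L3, of the same family, had 1 intronic site in ENST00000505658.1 and 1 stop-codon site in ENST00000505619.1. The core Sm gene SNRPB had 3 intronic sites in ENST00000381342.2, the highest count among the 25 genes with ADAR-SUGP1. SNRPD2, another Sm protein, had 1 in ENST00000342669.3 with each fusion. No LSm gene of the list was on either list of edited genes.

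The kinases held 6 sites, all intronic. SRPK1, which phosphorylates SR proteins and so allows their import into the nucleus, had 3 sites in ENST00000373825.2 with GPATCH8-ADAR and 1 in the same transcript with ADAR-SUGP1. PRPF4B (current symbol PRP4K), a kinase of tri-snRNP proteins, had 1 in ENST00000480058.1 with GPATCH8-ADAR. CLK2, a nuclear kinase of SR proteins, had 1 in ENST00000361168.5 with ADAR-SUGP1. SRPK2, SRPK3, CLK1, CLK3 and CLK4 were on neither list.

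Genes for spliceosome activation, RNA export and spliceosome disassembly had 1 intronic site each. RBM22, an RNA-binding protein of the activated spliceosome, had its site in ENST00000540000.1 with ADAR-SUGP1, and a second listed transcript, ENST00000520132.1, had 0 in every region. DDX39B, a helicase that acts in early splicing and in RNA export, had 1 intronic site in ENST00000474961.1 and 1 stop-codon site in ENST00000484566.1 with ADAR-SUGP1. Its close relative DDX39A, outside the 35 genes, had 1 intronic and 1 stop-codon site with the same fusion. TFIP11, which works with the helicase DHX15 to take the spliceosome apart, had 1 intronic site in ENST00000407690.1 with GPATCH8-ADAR.

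CCDC84 (current symbol CENATAC), a protein of the minor spliceosome that is needed for the splicing of AT-AC introns, had more sites than any other of the 35 genes. It carried 6 intronic sites in ENST00000334418.1 with GPATCH8-ADAR, and 1 in this transcript with ADAR-SUGP1. Only 2 of the 565 genes with GPATCH8-ADAR had more sites, and 6 genes, CCDC84 included, had as many or more. The minor spliceosome protein RNPC3, which is in the wider list but not among the 35 genes, had 3 intronic and 2 stop-codon sites with ADAR-SUGP1. The other 7 minor spliceosome genes of the list were on neither list.

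Among transcripts of genes for G-patch proteins, the family to which GPATCH8 and SUGP1 belong, 1 was listed with GPATCH8-ADAR and 3 with ADAR-SUGP1, out of a list of 19 genes without U2 factors. These were TFIP11 with the first fusion and SON, CMTR1 and RBM6 with the second, and each had 1 intronic site. CMTR1, which methylates the ribose of the first nucleotide after the cap, had its site in ENST00000373451.4. RBM6, a relative of the splicing regulator RBM5, had its site in ENST00000434592.1. SON and TFIP11 are counted under 2 roles each.

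**Figure D2:**
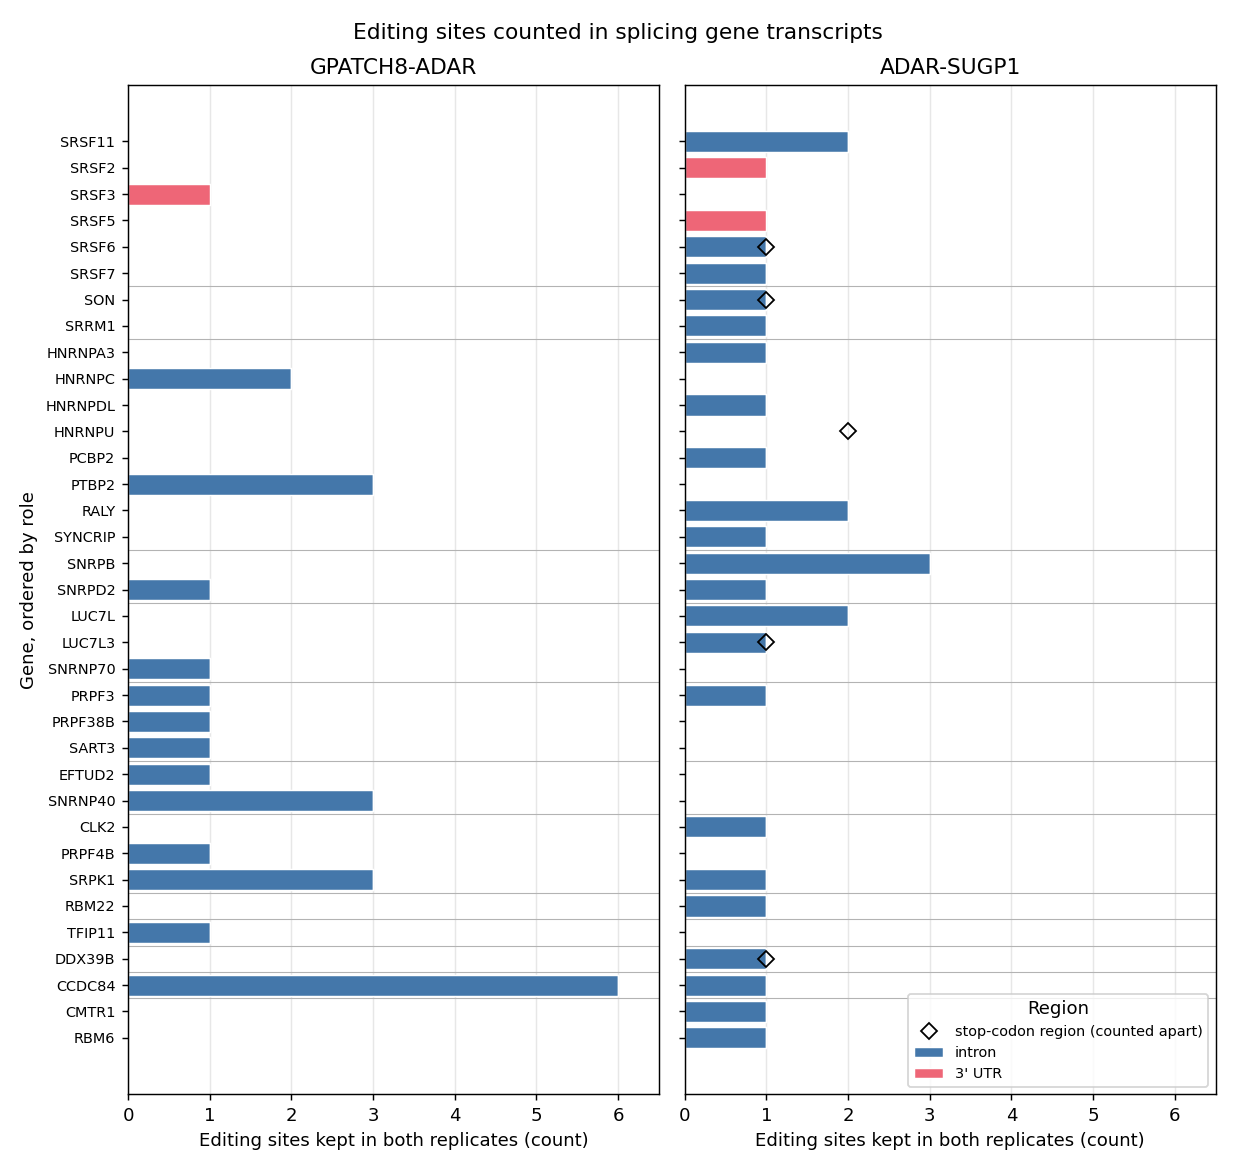
Number of editing sites (horizontal axis, sites kept in both replicates) in each of the 35 splicing genes, with GPATCH8-ADAR on the left and ADAR-SUGP1 on the right; genes are ordered by role with lines between roles, bars give intronic and 3′ UTR sites and diamonds give stop-codon sites, which the tables count apart. CCDC84 reached 6 sites with GPATCH8-ADAR, SNRPB reached 3 with ADAR-SUGP1, and diamonds appear with ADAR-SUGP1 alone.

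Only 4 of the 35 genes were on both lists: CCDC84 (6 sites with the first fusion, GPATCH8-ADAR, and 1 with the second), SRPK1 (3 and 1), PRPF3 (1 and 1) and SNRPD2 (1 and 1). This was 28.6% of the 14 genes with GPATCH8-ADAR and 16.0% of the 25 genes with ADAR-SUGP1, against 28.7% and 14.6% of all listed genes, so the shares of shared genes were close to the background. In each of the 4 genes the same transcript was listed for both fusions and all sites were intronic. Over all 162 shared genes, 149 had at least 1 identical transcript. No gene of the 4 had more sites with ADAR-SUGP1, and among all 162 shared genes 42 had more with GPATCH8-ADAR and 38 had more with ADAR-SUGP1. Without positions it is unknown whether any site was edited by both fusions.

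Most of the splicing genes held a single transcript-body site, as did most listed genes. With GPATCH8-ADAR, 9 of 14 genes had 1 site (64.3%, against 66.2% of all listed genes), HNRNPC had 2, PTBP2, SNRNP40 and SRPK1 had 3, and CCDC84 had 6. These 14 genes averaged 1.86 ± 1.46 sites (SD between genes) with a median of 1, against a mean of 1.41 ± 1.02 and a median of 1 over all 565 genes. Without CCDC84 the mean was 1.54. With ADAR-SUGP1, 20 of 25 genes had 1 site (80.0%, against 74.5%), HNRNPU had none in the transcript body, LUC7L, RALY and SRSF11 had 2 and SNRPB had 3. These 25 genes averaged 1.16 ± 0.554 sites (SD between genes) with a median of 1, against 1.22 ± 0.765 and 1 over all 1110 genes.

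With GPATCH8-ADAR, 5 of 14 genes held at least 2 transcript-body sites (35.7%, exact interval 12.8 to 64.9), against 28.1% of all listed genes, and with ADAR-SUGP1 4 of 25 did (16.0%, 4.54 to 36.1), against 19.3%. At least 3 were present in 4 of 14 genes (28.6%, 8.39 to 58.1) and 1 of 25 (4.0%, 0.101 to 20.4), against 9.38% and 6.13%. All of these intervals include the background, though that for 4 of 14 genes only just does so (8.39 against 9.38). With 14 and 25 genes the intervals are wide, so these differences could not be told from none, and they were not tested. At least 1 transcript-body site was found for 14 of 14 and 24 of 25 genes, against 94.3% and 93.8% of all listed genes.

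Stop-codon sites in these genes were counted with ADAR-SUGP1 and not with GPATCH8-ADAR. With ADAR-SUGP1, DDX39B, HNRNPU, LUC7L3, SON and SRSF6 had at least 1 stop-codon site, which is 5 of 25 genes (20.0%, exact interval 6.83 to 40.7) against 12.9% of all listed genes. With GPATCH8-ADAR this was 0 of 14 (interval 0 to 23.2), against 3.54%. HNRNPU had 2 such sites and the others 1. In 4 of the 5 transcripts with a stop-codon site the transcript body held no site, as in 87 of all 146 such transcripts with this fusion (59.6%), and SRSF6 was the exception. Both shares lay within counting error of the background, and neither was tested.

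Several listed transcripts were present for 5 of 25 genes with ADAR-SUGP1 (20.0%), namely DDX39B, LUC7L3, RBM22, SON and SRSF5, against 18.2% of all listed genes, and for 0 of 14 with GPATCH8-ADAR, against 7.79%. In each of these 5 genes only 1 transcript had a site in its body, as in 168 of all 202 genes with several listed transcripts (83.2%). All 14 and all 30 transcripts of the splicing genes were annotated as protein-coding, as were 88.9% and 90.7% of all listed transcripts.

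Set against a wider list of 164 splicing genes in 13 roles, drawn up with earlier results of these data known, 14 were listed with GPATCH8-ADAR, 28 with ADAR-SUGP1 and 4 with both. BCLAF1, DDX39A and RNPC3 were the 3 listed genes outside the 35, all with ADAR-SUGP1 and each with intronic and stop-codon sites. The SR proteins had the largest share of listed genes of the 13 roles, 6 of 14 with either fusion, against 38 of 164 over the whole list. Splicing kinases had 3 of 8, U1 and LUC7-like genes 3 of 9, and exon junction and export factors 2 of 6. The hnRNPs had 8 of 29, near the share of the whole list. The PRP19 complex and related activation factors had 1 of 15 (RBM22), and the late-step factors 1 of 9 (TFIP11). No role was tested, and the roles hold too few genes for these shares to rank them. The tables give neither expression nor read depth to set beside these counts.

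**Figure D3:**
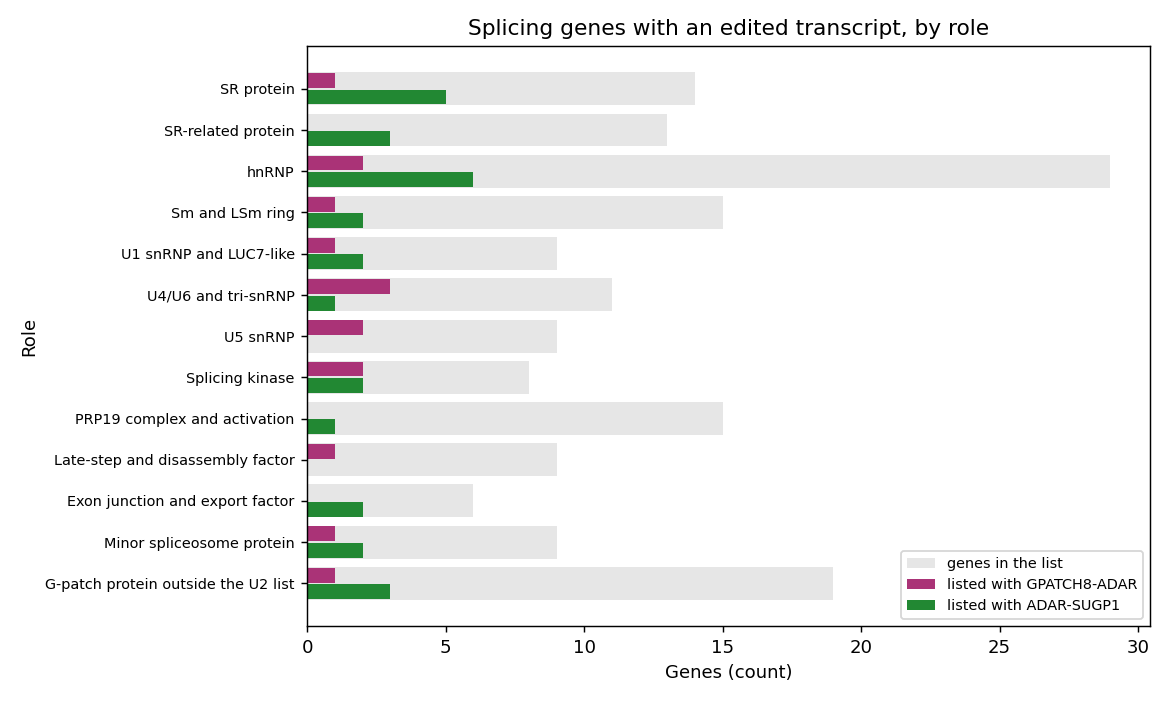
Number of genes (horizontal axis) in each of 13 roles of a list of 164 splicing genes (grey), listed with GPATCH8-ADAR (purple) and with ADAR-SUGP1 (green); SON and TFIP11 count in 2 roles. SR proteins had 1 and 5 listed genes of 14, hnRNPs 2 and 6 of 29, and U5 snRNP genes 2 and 0 of 9.

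Copies elsewhere in the genome can share reads with some of these genes. RefSeq names at least 1 pseudogene after 20 of the 35 genes, up to 17 for HNRNPA3, 9 for HNRNPC and 10 for RBM22. The same count was not made for all listed genes, so it cannot be called high or low. HNRNPA3, HNRNPC and RBM22 had intronic sites alone. Among the genes with 3′ UTR sites, SRSF3 has 5 named pseudogenes and SRSF2 has 1. How the deposited calls treated reads that match several places is not given in the sources used here. SRSF2 also overlaps MFSD11 in the RefSeq annotation, and MFSD11 was listed with ADAR-SUGP1 with 1 site in its 5′ UTR. Their part in these counts was not tested.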

How the data were processed

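Editing sites were analysed from 1 deposited table per fusion, in which the authors gave whole-number counts of sites for each Ensembl transcript and region, per the file headers. Per the submitters' processing notes, hg19, Trimmomatic and STAR were used; no versions, site caller, thresholds or strand setting were stated there. Per the series' design text, endogenous and control editing was subtracted and sites seen in both replicates were kept. The 572 blank rows of the GPATCH8-ADAR table were skipped.

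A gene's count was the sum of its listed transcripts (Python 3.11.15, pandas 2.3.3), on the assumption that no site is counted under 2 transcripts. Exact binomial (Clopper-Pearson) 95% intervals were made with SciPy 1.17.1. Sums and intervals were tested on simulated data. Of the 35 gene names, 33 were current RefSeq symbols and 2 were synonyms, by a table of assembly GRCh38.p14, used only for names and neighbours. The genes, the wider list and the alternatives were chosen with earlier results of these data known. All 35 genes are named; counts by transcript are given for those with several sites, on both lists, or with sites outside introns, and for most others. No test was run, because each count covers sites kept in both replicates, with no value for either replicate or for controls.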

Additional observations from a re-analysis of the deposited data

How the results depend on the processing

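When at least 2 transcript-body sites were required, the number of genes fell from 14 to 5 with GPATCH8-ADAR and from 25 to 4 with ADAR-SUGP1, since most genes hold 1 site. The other 23 of the 25 alternatives moved no value beyond its interval, its SD over genes or 1.5 times its count. Many of them could not have moved a value. With both fusions, all transcripts were protein-coding and no gene had body sites in more than 1 transcript. With GPATCH8-ADAR, each of the 14 genes also had 1 listed transcript and at least 1 body site. Alternatives on these points were fixed in advance and say nothing on robustness. The intronic share ranged from 92.9% to 96.2% with GPATCH8-ADAR and from 91.7% to 95.8% with ADAR-SUGP1. These shares were set against the interval of the main value. Whether an interval made for each alternative would still exclude the background was not examined. Leaving out the gene with the most sites for the mean was chosen after seeing the data. Leaving out a replicate was not possible, as each count covers both. No paired analysis was possible because the tables hold no replicate values. Counts of 26 and 29 sites limit every share given here.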

Other observations

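The share of splicing genes with a neighbour on the same list was close to that of all listed genes with ADAR-SUGP1, where 4 of 25 had an adjacent protein-coding gene on the list, as had 194 of all 1010 listed genes that could be placed in the RefSeq table. These neighbours were NFE2L2 beside HNRNPA3 (1 intronic site), RBM5 beside RBM6 (4 intronic and 2 stop-codon sites), MFSD11 beside SRSF2 (1 site in the 5′ UTR) and L3MBTL1 beside SRSF6 (1 coding site). With GPATCH8-ADAR it was 0 of 14, against 45 of 501. RBM5 and RBM6, neighbours of related sequence that both carry a G-patch, were thus 1 of these 4 pairs with ADAR-SUGP1. RBM6 was not listed with GPATCH8-ADAR, and the pair was not tested.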
